A study of Mus musculus with 4 samples.

Results

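Early immature olfactory sensory neurons (OSNs) with several odorant receptors detected were compared with early immature OSNs with a single one. The cells came from the main olfactory epithelium of 4 male C57BL/6 mice of 8 weeks (C57BL/6J in the study's methods), with 1 single-cell library per mouse and with no treatment or transgene given in the labels. The tissue was dissociated with papain and live nucleated cells were sorted before capture. The early immature OSNs were the cells that the deposited annotation calls iOSN1, of which 682 had at least 5000 unique molecular identifiers (UMIs, the count of distinct captured RNA molecules) out of 866 in all and of 15859 retained cells in the series. A receptor was any gene named Olfr (odorant receptors) or Taar (trace amine-associated receptors) with 1 or more UMIs in a cell. Cells with 3 or more receptors are called multi-receptor neurons here and numbered 184, with 68, 47, 44 and 25 in mice 1 to 4. Cells with exactly 1 receptor are called single-receptor neurons and numbered 325, with 95, 73, 58 and 99. A further 133 cells had exactly 2 receptors and 40 had none. The cells were thus chosen by their receptor UMIs, so receptor numbers and levels are given as a description, and differences between the sides were tested on the other genes.

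OSNs are produced throughout life from globose basal cells (GBC), by way of immediate neuronal precursors (INP) and of immature neurons that extend an axon before they grow odorant-sensing cilia. A mature OSN transcribes 1 receptor gene out of a very large family, from 1 allele. Lhx2, Ebf factors and the adaptor Ldb1 assemble enhancers from different chromosomes around the chosen gene, other receptor genes are held in heterochromatin, and the receptor protein triggers a feedback, in part through the unfolded protein response and Atf5, that stabilises the choice. Cells at the stage before this are known to contain transcripts of several receptors at low levels.

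The cells that carry the label early immature were first set against its 3 markers. Gap43 (a growth cone protein) and Gng8 (a G protein gamma subunit of immature OSNs) had 39.4 ± 0.956 and 15.6 ± 0.616 UMIs per 10000 in single-receptor neurons (SD, n = 4), and Lhx2 had 5.88 ± 0.611. All levels below are UMIs of a gene per 10000 UMIs of genes other than receptors, summed over the cells of a mouse, and they are compared between cells and not between genes. Gap43 was present in 97.2% of multi-receptor neurons, against 46.0% of INP and 1.84% of Mv2 microvillar cells (means of 4 mice). Neurod1, a factor of dividing and early postmitotic precursors, was at 9.05 UMIs per 10000 in INP and had 0 UMIs in multi-receptor neurons, which allows up to 0.0166 per 10000. Other INP markers were not absent. The 12 INP markers summed to 72.3 UMIs per 10000 in multi-receptor and 46.6 in single-receptor neurons (means of 4 mice), and several rose, as given below.

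Multi-receptor neurons made up 31.2% of the early immature OSNs in mouse 1 (95% Wilson interval 25.4% to 37.6%), 31.3% in mouse 2 (24.5% to 39.1%), 29.7% in mouse 3 (23.0% to 37.5%) and 15.1% in mouse 4 (10.4% to 21.3%). The mean was 26.8% ± 7.88 (SD, n = 4), and mouse 4 stood below the other mice, without which the mean was 30.8%. After every cell was thinned to 5000 UMIs the mean was 17.9% ± 5.20, and when a receptor needed 2 UMIs it was 3.61% ± 1.34 (SD, n = 4). These intervals cover counting error only.

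The share was set beside other cell types at the same minimum depth, as a description. It was 13.6% ± 2.14 in INP, 12.4% ± 3.26 in late immature OSNs (iOSN2) and 9.77% ± 2.10 in mature OSNs (SD, n = 4). After thinning, the values were 7.81% ± 1.23, 7.0% ± 2.08 and 5.99% ± 0.983, and early immature OSNs were above these 3 types in each of the 4 mice. Cell types that should lack receptors were taken as the background, whose source (free RNA, doublets or expression) was not tested. There, 0.397% of sustentacular cells, 0.862% of HBC1, 0.872% of Mv2, 1.39% of GBC, 5.0% of Mv1 (26 cells) and 5.58% of HBC2 had 3 or more receptors (means of 4 mice). At least 1 receptor was found in 37.3% of sustentacular, 30.3% of Mv2 and 39.3% of HBC2 cells. A neuron with a receptor of its own needs only 2 more to count as multi-receptor, so the shares with 3 or more in these types are not its full background. At 2 or more UMIs per receptor, 2.05% of HBC2 cells had 3 or more, against the 3.61% of early immature OSNs. Median depths were 7543 UMIs for early immature OSNs, 8477 for INP, 6498 for mature OSNs, 6463 for Mv2 and 8666 for HBC2.

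**Figure D1:**
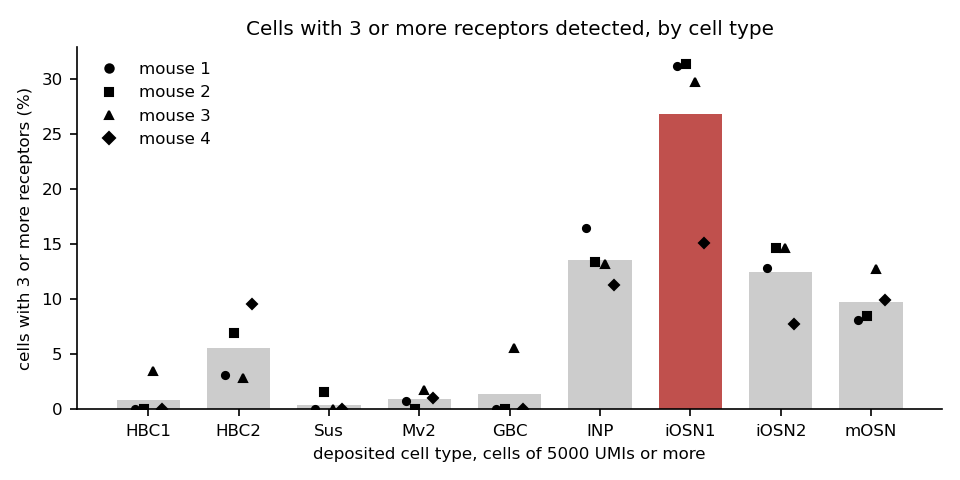
Percent of cells with 3 or more receptors detected (y axis) in each deposited cell type, among cells of 5000 UMIs or more; bars are means of 4 mice and symbols are single mice. Early immature OSNs (iOSN1, red) sit at 29.7% to 31.3% in mice 1 to 3 and at 15.1% in mouse 4, where INP, iOSN2 and mature OSNs (mOSN) sit at 7.73% to 16.5%.

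Sequencing depth differed between the sides. The median UMI count of multi-receptor neurons was 8063.5, 8644, 10425 and 6559 in mice 1 to 4, and that of single-receptor neurons 7674, 6971, 8982.5 and 6083. Multi-receptor neurons were deeper in 4 of 4 mice, by 1.05 to 1.24 times, with p = 0.125 in an exact two-sided sign-flip permutation test, the smallest p that 4 mice allow. The median number of detected genes was 3210 against 3082 (means of 4 mice) and higher in 3 of 4 mice (p = 0.25, same exact test). The median percent of mitochondrial UMIs was 0.747% against 0.592% and also higher in 3 of 4 mice (p = 0.25, same exact test). The summed UMIs behind the gene levels ranged from 209898 to 683526 per mouse for multi-receptor and from 539585 to 778394 for single-receptor neurons. Only 2 of the 184 multi-receptor neurons had a barcode that was also present in another library.

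Most receptors of a multi-receptor neuron were seen at a single molecule. Of 904 receptor detections in these cells, 659 rested on 1 UMI. The second receptor had 1 UMI in 112 of 184 cells and 10 or more in 27, and 25 cells had 3 or more receptors at 2 or more UMIs each. By median, their strongest receptor was at 4, 18, 12.5 and 7 UMIs per cell in mice 1 to 4. The only receptor of a single-receptor neuron was at 25, 29, 32 and 21 UMIs, above the former in every mouse. At the threshold itself, 80 cells had exactly 3 receptors and 133 had exactly 2. The numbers then fell to 35 cells with 4 receptors, 17 with 5 and 52 with 6 to 16. At the depth limit, the shallowest member had 5008 UMIs, and the deepest early immature OSN with 3 or more receptors that was left out had 4968.

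**Figure D2:**
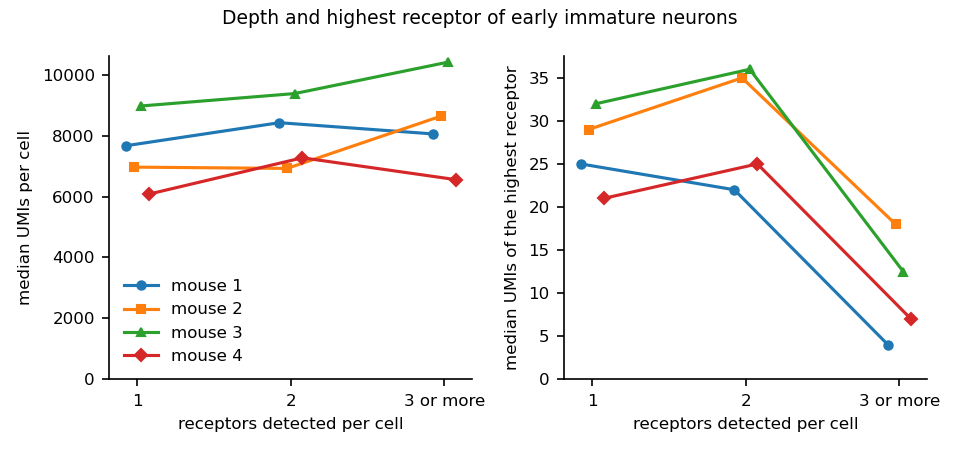
Median UMIs per cell (left) and median UMIs of the highest receptor (right) in early immature OSNs with 1, 2, or 3 or more receptors detected; each line is a mouse. The highest receptor is at 21 to 32 UMIs with 1 receptor and at 4 to 18 with 3 or more, while the median depth rises by 1.05 to 1.24 times.

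The multi-receptor neurons fell into cells with and without a prominent receptor. In 88 of 184 the highest receptor had under 10 UMIs, and in 46 of them no receptor exceeded 1 UMI. The share of cells under 10 UMIs was 55.9%, 31.9%, 47.7% and 56.0% in mice 1 to 4, against 25.3%, 15.1%, 19.0% and 25.3% of single-receptor neurons. It was 27.5% of cells with exactly 3 receptors, 60% with 4 and 65.2% with 5 or more. The division at 10 UMIs was chosen after the values were seen and is used below to describe the gene levels.

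Genes other than receptors were then tested on UMI sums per mouse and side, with edgeR's quasi-likelihood test, the mouse as a block and Benjamini-Hochberg adjustment at 0.05. Of 7102 genes tested, 539 were higher (7.59%) and 381 lower (5.36%) in multi-receptor neurons, together 13.0% of the genes tested, and 1762 had an unadjusted p under 0.05. The 4 mice of each side did not overlap for 1044 of the 7102 genes (14.7%), the share to set beside each mention of no overlap below. Of the gene lists described below, 6 of 10 tested INP markers and 7 of 15 tested mature OSN markers rose, and 11 of 21 tested axon growth genes fell. DESeq2, which gave an adjusted p for 3660 genes, called 316, all of them among the 920 of edgeR, and leaving out mouse 1 gave 481 calls.

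Several differences were smaller in cells whose receptors rested on more molecules. In 72 of the multi-receptor neurons the second receptor had 2 or more UMIs, and these were set against the same 325 single-receptor neurons, at median depths of 10449 and 7150 UMIs. Of 58 named genes tested there, 31 kept their call and 27 lost it. A lost call does not by itself show a smaller change. Uap1, for example, lost its call at -0.96, where it had -1.02 over all 184 cells. The log2 change was 3.52 for Tex15, 2.58 for Crabp1, 1.51 for Rcor1 and -0.50 for Gap43, which passed, and 0.17 for Lhx2, 0.20 for Ebf1, 0.31 for Hdac2 and 0.48 for Smchd1, which did not. Omp had 1.06 and Stoml3 1.20, both above their changes over all 184 cells, and passed. A further comparison changed both the UMIs and the number of receptors required, with 109 cells of 2 or more receptors at 2 or more UMIs against 451 cells with 1 (median depths of 10242 and 7599 UMIs). There, 66 multi-receptor neurons stood on the single-receptor side and the 46 in which no receptor exceeded 1 UMI on neither, so that multi-receptor neurons were in part compared with each other. Of 66 named genes tested in it, 21 kept their direction and call, 43 lost the call and 2 reversed. Its values are given below for part of these genes, as those of the comparison from 2 UMIs.

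Tex15 showed the largest rise of the genes named here. Its product is known from male germ cells, where it takes part in silencing of transposons and in chromosome pairing. In single-receptor neurons Tex15 was at 0.591, 0, 0.0180 and 0.657 UMIs per 10000 in mice 1 to 4, and in multi-receptor neurons at 10.6, 6.42, 9.73 and 9.48. The sides did not overlap, and the value of 0 in mouse 2 allows up to 0.0556. The log2 change was 4.80 ± 0.20 (SE), with an adjusted p of 1.56e-22 (edgeR). This SE, like those given below with log2 changes, goes with the edgeR test and is not the spread between mice. The log2 differences between the sides were 4.14, 9.33, 8.44 and 3.83 in mice 1 to 4, with a small constant added to each level. With levels near 0 in single-receptor neurons, the size of the log2 change of Tex15 differed between fits. It was 6.56 in DESeq2, and 7.56 with a minimum of 8000 UMIs and 8.59 against single-receptor neurons with 3 or more UMIs of their receptor, settings that left very few Tex15 UMIs on the single-receptor side, so no exact fold can be read from it. In the comparison from 2 UMIs it was 0.56 (adjusted p of 0.0323, edgeR). The gene (ENSMUSG00000009628) lies on chromosome 8 from 33516738 to 33585582, plus strand, in GRCm38.

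Crabp1, which binds retinoic acid in the cytoplasm, followed the same pattern. Its levels were 2.92, 0.890, 0.614 and 1.92 in single-receptor neurons and 25.5, 19.6, 25.3 and 32.7 in multi-receptor neurons, with no overlap. The log2 change was 4.04 ± 0.13 (SE, adjusted p of 3.02e-26, edgeR), and in the comparison from 2 UMIs it was 0.45 (adjusted p of 0.0145). Crabp1 (ENSMUSG00000032291) lies on chromosome 9 from 54764748 to 54773110, plus strand.

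The presence of these transcripts was not limited to a few cells. Tex15 had a UMI in 41.8% ± 7.64 of multi-receptor neurons, 6.60% ± 2.28 of cells with 2 receptors and 3.02% ± 2.75 of single-receptor neurons (SD, n = 4). With all cells thinned to 5000 UMIs these shares were 39.7%, 5.29% and 2.49%. Tex15 had a UMI in 0.298% of mature OSNs and 0.591% of late immature OSNs, at median depths of 6498 and 7995 UMIs, and in 4.63% of Mv2 cells, at 6463 UMIs. The mean share in single-receptor neurons thus lay above those of mature and late immature OSNs and below that of Mv2 cells. Crabp1 had a UMI in 62.7% ± 9.38, 40.6% ± 12.5 and 25.2% ± 4.82 of cells with 3 or more, 2 and 1 receptors, against 2.40% of Mv2 cells and 1.24% of mature OSNs. In INP both were more frequent than in multi-receptor neurons, with Tex15 in 77.6% and Crabp1 in 98.3% of cells, at a median depth of 8477 UMIs.

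The 12 genes with the largest rise that were called, went up in all 4 mice and reached 0.5 UMIs per 10000 were these 2 and 10 others. Among them, Lypd1 (a modulator of nicotinic receptors) had a log2 change of 3.30, Dusp4 (a phosphatase of MAP kinases) 3.02, Ncald (a neuronal calcium sensor) 2.90, Khdrbs2 (a splicing regulator) 2.88, Fermt2 (an integrin activator) 2.66, Rasl11a (a Ras-like protein) 2.34 and Cdyl2 (a chromodomain protein) 2.34. In the comparison from 2 UMIs, Lypd1 reversed (-0.23), and Dusp4 (0.54), Khdrbs2 (0.91), Fermt2 (0.81), Rasl11a (0.67) and Cdyl2 (0.026) did not pass. The remaining 3 rising genes, Umodl1, S100a5 and 1700012B09Rik, had changes of 2.37, 2.11 and 2.10 in it, which passed. These 3 genes had higher levels in mature OSNs, at 10.1, 248 and 14.2 UMIs per 10000 (means of 4 mice). S100a5, a calcium-binding protein of mature OSNs, was at 1.71, 1.09, 2.54 and 4.39 in single-receptor and 12.6, 9.49, 3.78 and 32.2 in multi-receptor neurons. The sides of S100a5 overlapped, although it was higher in each mouse (log2 2.51 ± 0.16, adjusted p of 9.72e-16, edgeR). Its log2 differences in the single mice, computed as for Tex15, were 2.87, 3.11, 0.57 and 2.87. The spread between mice was thus wider than this SE conveys. A UMI of S100a5 was present in 41.9% of Mv2 cells, in 53.9% of single-receptor and in 58.2% of multi-receptor neurons, so its UMIs were also common in cells of another type, and the part of such a background in the difference was not tested.

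The 12 genes with the largest fall had smaller changes, from -1.14 to -0.93 on the log2 scale. Rprm, which takes part in cell-cycle arrest, was at 8.35, 6.15, 6.50 and 8.46 in single-receptor and 4.59, 3.35, 3.46 and 2.67 in multi-receptor neurons, without overlap (log2 -0.97 ± 0.09, adjusted p of 3.46e-11, edgeR). Mef2b, a MADS-box transcription factor, fell from 7.17, 6.86, 6.95 and 7.05 to 3.80, 3.49, 4.03 and 2.48 (log2 -0.94 ± 0.09, adjusted p of 2.96e-11, edgeR). Cebpa (a leucine zipper factor, log2 -0.95) and Id3 (an inhibitor of basic helix-loop-helix factors, log2 -0.99) also fell. In the comparison from 2 UMIs none of the 12 genes kept its call. There, Rprm had a log2 change of -0.41 (adjusted p of 0.0553, edgeR), Mef2b -0.17, Cebpa -0.56 and Id3 -0.046. The other 8 were Ctsz, Trp53i11, Uap1, Akap12, Fam107b, Dkkl1, Shisa4 and Rsu1, with levels of at most 1.22 UMIs per 10000 in every mouse and side, and those of Akap12 and Id3 overlapped between the sides. The 72 cells whose second receptor had 2 or more UMIs were also set against the 325 single-receptor neurons. There, Trp53i11 (-1.24), Fam107b (-0.94), Rprm (-0.68) and Mef2b (-0.45) passed, and the rest of the 12 did not.

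**Figure D3:**
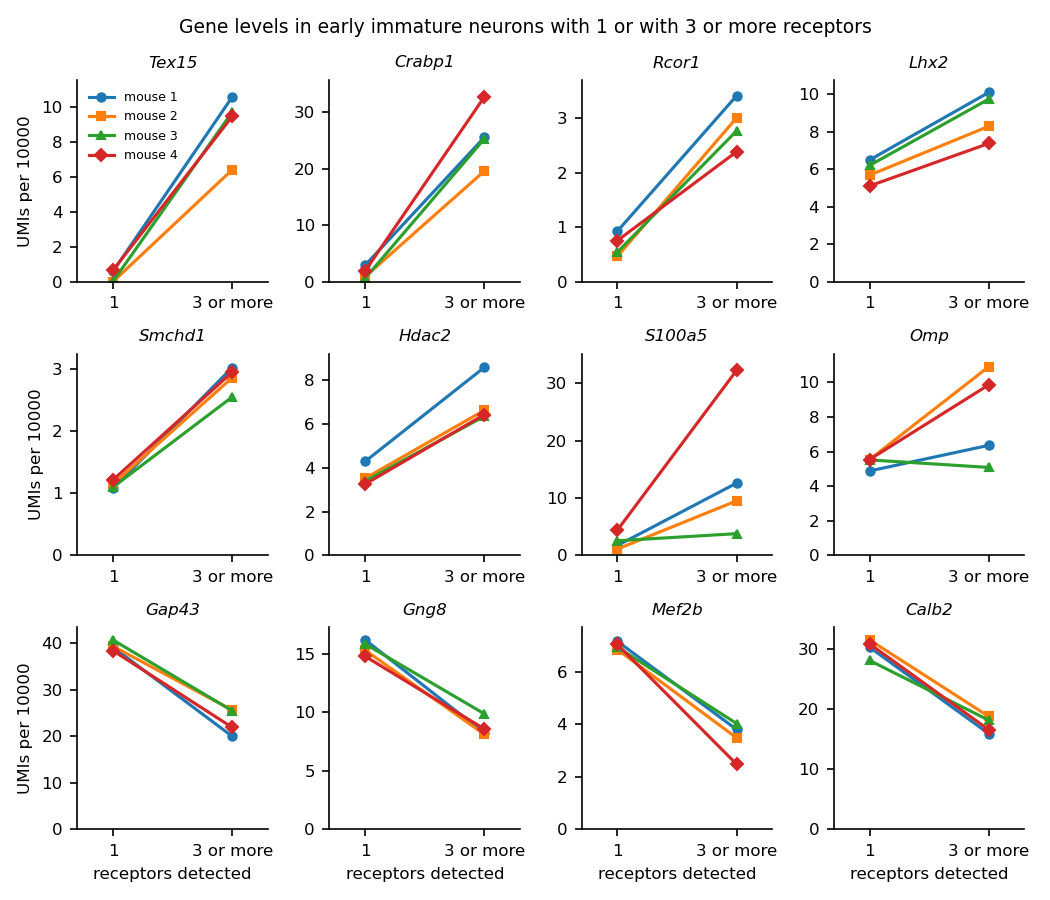
Levels of 12 genes (y axes, UMIs per 10000 UMIs of genes other than receptors, each axis from 0) in early immature OSNs with 1 receptor and with 3 or more; each line joins the sides of a mouse. Omp went up in mice 1, 2 and 4 and from 5.52 to 5.09 in mouse 3, and the other 11 genes moved the same way in all 4 mice.

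The markers of the early immature stage did not move together. Gap43 fell from 39.1, 39.3, 40.7 and 38.4 to 19.96, 25.6, 25.5 and 21.9, without overlap (log2 -0.73 ± 0.06, adjusted p of 4.28e-13, edgeR). Gng8 fell from 16.2, 15.3, 15.9 and 14.8 to 8.22, 8.12, 9.88 and 8.58 (log2 -0.80 ± 0.07). Lhx2 rose from 6.50, 5.69, 6.21 and 5.11 to 10.1, 8.30, 9.75 and 7.38 (log2 0.64 ± 0.07, adjusted p of 3.15e-09, edgeR). In the comparison from 2 UMIs, Lhx2 had a log2 change of 0.04 that did not pass (adjusted p of 0.929, edgeR), while Gap43 had -0.35 and Gng8 -0.54, which passed.

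Of 13 receptor choice regulators, all of which were tested, 7 rose and 1 fell, with a median log2 change of 0.48, where the median of all 7102 genes was 0.00. Of all genes tested, 7.59% were higher and 5.36% lower. Rcor1, the CoREST scaffold that joins the demethylase Kdm1a to histone deacetylases, had the largest change. Its levels were 0.925, 0.463, 0.541 and 0.753 in single-receptor and 3.41, 3.00, 2.77 and 2.38 in multi-receptor neurons (log2 2.14 ± 0.14, adjusted p of 6.98e-16, edgeR). Tshz1, a zinc finger factor, rose (log2 1.00 ± 0.10), as did Ldb1, the adaptor of Lhx2 (log2 0.85 ± 0.15). The enhancer-binding factors Ebf1 (0.58 ± 0.06), Ebf3 (0.62 ± 0.09) and Ebf2 (0.48 ± 0.07) rose as well. Ebf1, the most fully sampled of them, went from 17.9, 18.7, 16.8 and 16.9 to 26.2, 23.2, 26.2 and 26.4 UMIs per 10000. In the comparison from 2 UMIs, Rcor1 had a log2 change of 0.68 and Tshz1 0.44, which passed, whereas Ebf1 (0.015), Ebf3 (0.15), Ebf2 (0.071) and Atf5 (-0.15) did not. Atf5, the leucine zipper factor of the receptor feedback, fell from 45.7, 44.7, 47.0 and 41.8 to 35.2, 35.3, 35.5 and 32.9 (log2 -0.32 ± 0.05, adjusted p of 9.65e-06, edgeR). Kdm1a itself had a log2 change of 0.31 with an adjusted p of 0.0765 (edgeR), and Emx2, Tet3, Bptf and Ebf4 did not pass either.

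Among 14 tested genes of receptor export and the unfolded protein response, 2 rose and 2 fell, with a median log2 change of -0.24. Against 7.59% higher and 5.36% lower of all genes tested, these adjusted counts were not far from the background. At an unadjusted p under 0.05 (edgeR), 2 of the 14 were higher and 8 lower, against 942 and 820 of all 7102 genes. A log2 change below 0 was found for 11 of the 14, against 3541 of the 7102. Herpud1, which acts in degradation of proteins from the endoplasmic reticulum, fell from 3.97, 5.12, 4.55 and 3.94 to 2.85, 2.80, 3.90 and 2.62 (log2 -0.48 ± 0.10). Atf5 was the other that fell. Ric8b, a chaperone of the olfactory G protein, and Adcy3 were the 2 that rose, and both also belong to odorant transduction. Ric8b, with a log2 change of 0.62 (adjusted p of 0.012, edgeR), was higher in 3 of 4 mice. The log2 change of Ric8b did not pass without mouse 1 (0.66) or mouse 2 (0.26), in depth-matched cells (0.50), in the same cells thinned (0.67), without the cells of the 4% highest Scrublet scores, a measure of likely doublets (0.53), or in DESeq2 (0.60). The receptor transporter Rtp1 had a log2 change of -0.10, which did not pass. Herpud1 did not pass in the comparison from 2 UMIs (-0.061) or in the cells whose second receptor had 2 or more UMIs (-0.092). Ric8b passed in both, at 0.91 and 1.06.

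Of 20 tested heterochromatin genes, 2 rose and 1 fell, and the median log2 change was 0.07. These counts were near the shares over all genes tested, 7.59% higher and 5.36% lower. Smchd1, a chromatin protein of the inactive X chromosome and of silenced gene clusters, rose from 1.08, 1.15, 1.10 and 1.22 to 3.03, 2.87, 2.55 and 2.95 (log2 1.38 ± 0.11, adjusted p of 1.29e-12, edgeR). Hdac2, a histone deacetylase, rose from 4.29, 3.52, 3.39 and 3.25 to 8.59, 6.63, 6.35 and 6.43 (log2 1.00 ± 0.08). In the comparison from 2 UMIs neither passed, at 0.10 for Smchd1 and 0.069 for Hdac2. Hmgb1, a DNA-bending protein, had a log2 change of -0.29 ± 0.07, and in DESeq2 the same change of -0.29 did not pass (adjusted p of 0.0836).

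Markers of the precursor stage were raised in part. Of 10 tested INP markers, 6 rose and 1 fell, with a median log2 change of 0.55, against 7.59% higher and 5.36% lower of all genes tested. Besides Tex15, Lhx2 and Ebf1, the genes that rose were Sox11 (a neuronal SOX factor, log2 0.53 ± 0.06), Hes6 (a promoter of neuronal differentiation, log2 1.37 ± 0.14) and Gadd45g (a stress and differentiation gene, log2 1.56 ± 0.28). Nhlh1, a helix-loop-helix factor of young neurons, fell from 2.85, 2.50, 3.05 and 2.53 to 1.77, 1.47, 1.48 and 1.14 (log2 -0.82 ± 0.11, adjusted p of 3.93e-07, edgeR). Neurog1 and Neurod1 were too low to be tested, and Neurog1 was at 0 to 0.102 UMIs per 10000 on both sides. Among 15 tested neurogenic transcription factors, 6 rose and 4 fell, against 7.59% higher and 5.36% lower of all genes tested. Id4 went from 1.03, 1.07, 0.920 and 1.20 to 3.94, 3.07, 3.17 and 3.57 (log2 1.77 ± 0.11), in the direction opposite to Id3 and Id2. Myt1l (log2 0.98) and Sox4 (log2 1.42) rose. In the comparison from 2 UMIs, Hes6 reversed (-0.086), and Sox11 (0.073), Nhlh1 (-0.41), Id4 (0.41), Myt1l (0.14) and Sox4 (0.22) did not pass. In the cells whose second receptor had 2 or more UMIs, Nhlh1 (-0.83), Id4 (1.17) and Sox4 (1.00) passed. Hes6 (0.39), Sox11 (0.21) and Myt1l (0.45) did not pass in these cells. Of 3 tested Notch genes only Hes6 was called, and of 3 tested markers of globose basal and cycling cells 0 passed in edgeR or DESeq2 and 0 had an unadjusted p under 0.05.

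Among genes of the growing axon, more fell than rose. Of 21 tested genes of axon growth and cytoskeleton, 11 fell and 1 rose, with a median log2 change of -0.25, against 5.36% lower and 7.59% higher of all genes tested. The genes that fell included the microtubule regulators Stmn1 (log2 -0.45), Stmn2 (-0.35), Stmn3 (-0.47) and Stmn4, the tubulins Tuba1a (-0.42), Tubb3 (-0.27) and Tubb2b, and the adhesion molecule Ncam1 (-0.25). Stmn1 went from 89.1, 81.5, 79.9 and 88.9 to 62.2, 56.1, 59.8 and 62.8 UMIs per 10000, without overlap. Stmn1 (-0.35) and Tuba1a (-0.30) passed in the comparison from 2 UMIs, and Stmn2 (-0.20) and Stmn3 (-0.20) did not. Ablim1, an actin-binding protein, was the one that rose (log2 0.64 ± 0.16). Summed over all 23 genes of the list, the level was 486.7 to 500.04 in single-receptor and 366.6 to 380.6 in multi-receptor neurons.

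Guidance genes were mixed. Of 20 tested genes of axon guidance and sorting, 5 rose and 1 fell, with a median log2 change of 0.14, against 7.59% higher and 5.36% lower of all genes tested. Nrp2, a semaphorin receptor that sorts axons along the dorsal to ventral axis, rose from 0.912, 1.39, 1.08 and 1.73 to 2.50, 2.38, 3.04 and 2.72 (log2 1.16 ± 0.13, adjusted p of 2.66e-09, edgeR). Efna5, an ephrin ligand, rose from 0.385, 0.463, 0.162 and 0.304 to 1.05, 0.825, 0.844 and 1.14 (log2 1.58 ± 0.21). Kirrel2 (log2 0.79), Sema7a (1.15) and Pcdh17 (0.38) rose too, but without mouse 1 they had log2 changes of 0.58, 0.87 and 0.41 that did not pass. Pcdh17 also lost its call without mouse 2 (0.40) or mouse 3 (0.22), and Sema7a without mouse 4 (1.10). Cntn4, a contactin of axon sorting, fell (log2 -0.40 ± 0.09). Nrp2 (0.25), Sema7a (1.14), Pcdh17 (0.086) and Cntn4 (-0.10) did not pass in the comparison from 2 UMIs, whereas Efna5 (0.80) and Kirrel2 (1.38) did.

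A zone is the dorsal or ventral position of an OSN in the nasal cavity. The list of zone genes also held the subset markers Calb2, Cd55, Cd36 and Dlg2. In the paper these define subclusters of both the dorsal and the ventral groups, so their changes give no position. Of 16 genes tested from the list, 7 were higher and 3 lower, with a median log2 change of 0.26. Of all genes tested, 7.59% were higher and 5.36% lower. Nfia went from 0.719, 1.13, 0.487 and 0.641 to 2.24, 2.41, 3.17 and 1.72, and Nfib from 1.40, 1.76, 1.48 and 1.63 to 3.39, 2.89, 3.46 and 4.72. Pcp4l1, a Purkinje cell protein homologue, also rose (log2 1.65 ± 0.15). Calb2, a calcium-binding protein, fell from 30.4, 31.6, 28.2 and 30.9 to 15.9, 18.8, 18.2 and 16.6 (log2 -0.76 ± 0.06, adjusted p of 2.98e-13, edgeR). Nqo1, an enzyme of dorsal OSNs, had a log2 change of -0.63 with an adjusted p of 0.0481 (edgeR), at 3.80, 1.82, 2.76 and 2.02 in single-receptor and 0.629, 2.36, 3.31 and 0.762 in multi-receptor neurons, so that it was lower in mice 1 and 4 and higher in mice 2 and 3. Nfix, a ventral marker, had a log2 change of -0.22 that did not pass. Nfia (0.19) did not pass in the comparison from 2 UMIs, while Nfib (0.45), Pcp4l1 (1.29) and Calb2 (-0.38) did.

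Of 15 tested mature OSN markers, 7 rose and 0 fell, with a median log2 change of 0.40, against 7.59% higher and 5.36% lower of all genes tested, and 8 were higher and 0 lower at an unadjusted p under 0.05. DESeq2 called 3 of them higher and 0 lower. Omp, a cytoplasmic protein of mature OSNs, was at 4.88, 5.54, 5.52 and 5.54 in single-receptor and 6.36, 10.9, 5.09 and 9.86 in multi-receptor neurons (log2 0.57 ± 0.10, adjusted p of 2.66e-05, edgeR) and was higher in 3 of 4 mice. In DESeq2 its log2 change was much the same, 0.56, but did not pass (adjusted p of 0.16), whereas with the same cells thinned to 5000 UMIs the change itself was smaller, 0.27 (adjusted p of 0.284, edgeR), as it was in depth-matched cells (0.33, adjusted p of 0.035). Where the sides were also chosen again after thinning (124 against 370 cells), it was 0.12 (adjusted p of 0.696). The share of cells with an Omp UMI was 54.3% ± 12.6 of multi-receptor and 61.6% ± 3.39 of single-receptor neurons (SD, n = 4), and 45.2% and 55.8% after thinning, against 20.6% of Mv2 cells. Stoml3, which tunes the response of cilia, rose from 6.55, 4.24, 5.72 and 7.003 to 9.11, 12.5, 8.97 and 10.9 (log2 0.85 ± 0.09). With the same cells thinned its log2 change was 0.56 and passed, and with the sides chosen again after thinning it was 0.26 and did not (adjusted p of 0.288, edgeR). A Stoml3 UMI was present in 43.9% of multi-receptor and 45.5% of single-receptor neurons, against 14.9% of Mv2 cells, so no order was read from these shares for either gene. Adcy3, the cyclase of odorant signalling, went from 0.540, 0.389, 0.469 and 0.561 to 0.688, 1.74, 0.760 and 0.858 (log2 1.03 ± 0.20), with mouse 2 above the rest, and without that mouse its log2 change was 0.57 and did not pass. Without the cells of the 4% highest Scrublet scores, Adcy3 had a log2 change of 0.66 that did not pass (adjusted p of 0.0623, edgeR), and Stoml3 (0.52) and Omp (0.48) had smaller changes that passed. Besides S100a5, given above, Umodl1 (log2 2.89), Slc17a6 (the vesicular glutamate transporter, 1.17) and Gnal (the olfactory G protein, 0.28) were the remaining calls. Without mouse 2 the log2 change of Umodl1 was 2.28 and passed, and its levels were 0.128, 0.0185, 0.144 and 0.144 in single-receptor and 0.512, 1.35, 0.443 and 1.14 UMIs per 10000 in multi-receptor neurons. In depth-matched cells its log2 change was 2.13 and passed. Umodl1 was not among the genes tested after thinning or without the cells of the 4% highest Scrublet scores, so it has no value there. Of 17 tested odorant transduction genes 6 rose and 3 fell, the latter being Gng8, Gnb1 (-0.21 without mouse 1, which did not pass) and Gnas. In mature OSNs Omp was at 66.6 and Stoml3 at 83.5, so the levels in multi-receptor neurons remained well below those.

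Markers of other cell types were near 0 on both sides. The summed level of 8 horizontal basal cell markers was 0.0361 to 0.0741 UMIs per 10000 in single-receptor and 0.0211 to 0.0953 in multi-receptor neurons, with Trp63 and Icam1 at 0. For 10 sustentacular markers it was 0.224 to 0.426 and 0.146 to 0.527, for 10 immune markers 0.0481 to 0.222 and 0.0633 to 1.03, and for 6 blood markers 0.141 to 0.982 and 0.132 to 0.905. For 10 gland markers it was 0.0361 to 0.0642 and 0 to 0.0633, and for 6 glia markers 0.130 to 0.198 and 0.0917 to 0.333. For 13 microvillar markers it was 0.578 to 1.06 and 0.410 to 3.67, with Chat, Avil, Sh2d7 and 4 others at 0. The highest sums of the microvillar, immune and sustentacular lists were those of mouse 2, where the 15 multi-receptor cells whose highest receptor had under 10 UMIs reached 12.7 for microvillar and 3.93 for immune markers. Of immediate early and dissociation genes, 2 of 10 tested rose, Jun (log2 0.87) and Dusp1 (0.50), and their part in the other differences was not tested. Jun (0.14) and Dusp1 (0.11) did not pass in the comparison from 2 UMIs. Of 19 cilium genes 2 fell (Tubb4b and Ift20) and of 14 synaptic genes 1 rose (Slc17a6), counts near the 5.36% lower and 7.59% higher of all genes tested.

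The pattern differed between multi-receptor neurons with a weak and with a prominent receptor. The 88 cells whose highest receptor had under 10 UMIs were compared with the 96 others, again on sums per mouse. Since this division was chosen after the values were seen, all calls and p values that rest on it are given as a description. Of 4145 genes tested, 518 were higher and 589 lower, together 26.7% (12.5% and 14.2%, edgeR, adjusted p under 0.05). Tex15 was at 19.0, 17.8, 25.2 and 18.8 UMIs per 10000 in the cells with a weak receptor and at 4.89, 2.83, 0.0343 and 2.28 in the others (log2 3.28, adjusted p of 2.17e-09, edgeR). Crabp1 was at 52.4, 53.6, 64.5 and 58.2 against 7.23, 8.86, 0.721 and 13.1 (log2 3.33). Lhx2 was at 15.2, 13.8, 16.1 and 8.98 against 6.62, 6.57, 5.80 and 6.15 (log2 1.24). None of these 3 genes overlapped between the kinds of cells, but the share of all 4145 genes without overlap was not counted here.

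Gap43 was lower in the cells with a weak receptor, at 10.3, 11.5, 10.7 and 15.1 against 26.6, 30.0, 34.7 and 27.1 (log2 -1.21, adjusted p of 6.51e-09, edgeR). Omp was at 0.505, 1.53, 0.822 and 4.49 against 10.4, 13.9, 7.76 and 14.0 (log2 -2.87, adjusted p of 4.47e-11, edgeR). Of 13 mature markers tested 0 were higher and 12 lower, of 9 INP markers 7 were higher and 2 lower, and of 12 export and unfolded protein response genes 0 were higher and 12 lower. Receptor choice regulators were higher in 8 and lower in 1 of 13. Of all 4145 genes tested in this comparison, 12.5% were higher and 14.2% lower. The cells with a weak receptor were also shallower, with a median of 6704 UMIs against 10889, and the part of depth in this difference was not tested.

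Each kind was also set against the same single-receptor neurons, and these comparisons share their controls. Cells with a weak receptor differed in 873 genes upward (14.7%) and 851 downward (14.3%) of 5958, together 28.9%. Cells with a prominent receptor differed in 94 genes upward (1.44%) and 37 downward (0.567%) of 6531, together 2.01%. Lhx2 had a log2 change of 1.36 in the former and 0.08 in the latter, Ebf1 1.23 and 0.10, Gap43 -1.59 and -0.42, and Tex15 6.05 and 3.05. Omp had -1.75 and 1.06, Stoml3 -1.53 and 1.31, and Gnal -1.44 and 0.72, and each of these 6 values passed the test. Omp and Stoml3 were thus above the 325 single-receptor neurons in the cells with a prominent receptor and below them in the cells with a weak one. S100a5 was at 1.26, 6.71, 0.877 and 37.8 in the cells with a weak receptor, where mouse 4 stood far above the others.

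**Figure D4:**
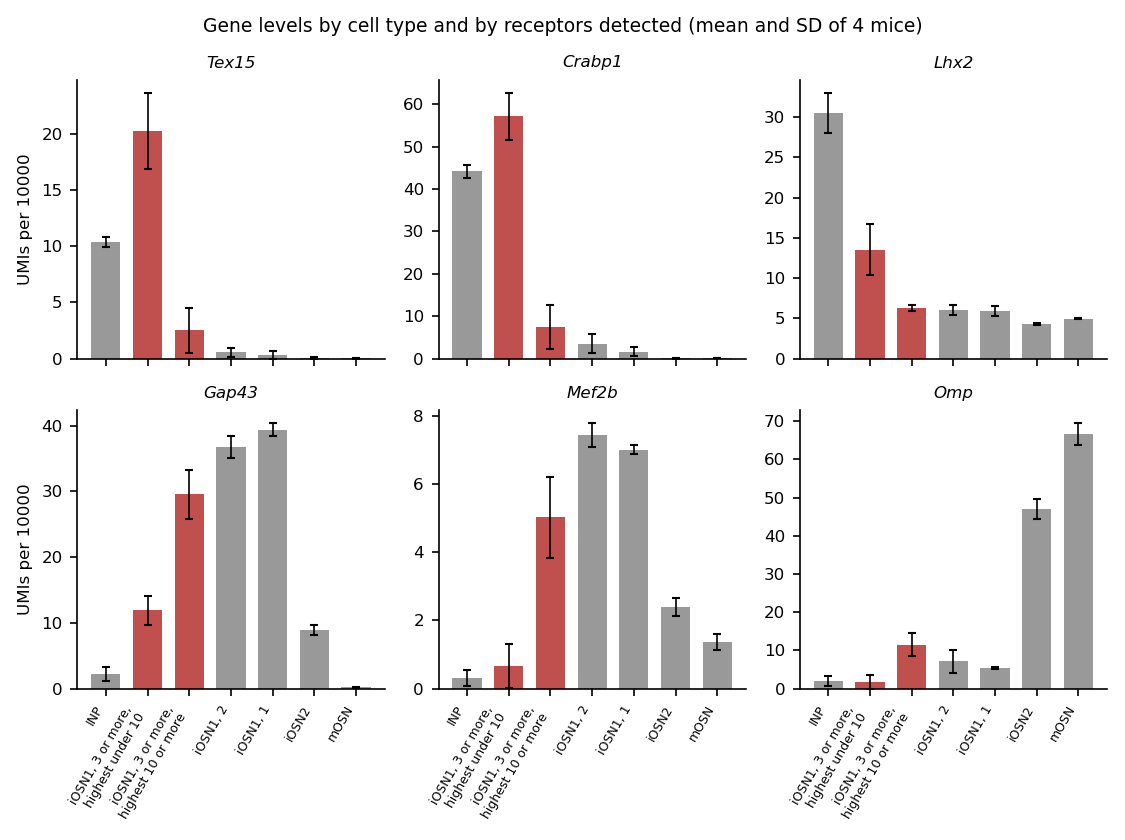
Levels of 6 genes (y axes, UMIs per 10000) in INP, in early immature OSNs (iOSN1) by receptors detected, in late immature (iOSN2) and in mature OSNs (mOSN); bars are means and error bars SDs of 4 mice, and multi-receptor neurons are red, divided by whether the highest receptor had under 10 UMIs or more. Tex15 and Crabp1 are at 20.2 and 57.2 in cells with a weak receptor and at 10.3 and 44.2 in INP, whereas Gap43, at 11.9, lies between INP (2.24) and single-receptor neurons (39.4).

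A single receptor can be weak too, so the sides were also compared with the highest receptor within the same range. Its level was not matched within that range. Under 10 UMIs, it was at 1 UMI in 46 of the 88 multi-receptor and in 26 of the 71 single-receptor cells. With the highest receptor under 10 UMIs on both sides, 88 multi-receptor cells (median 6704 UMIs) stood against 71 single-receptor cells (median 6638 UMIs), close by these pooled medians. Mice 1 to 4 gave 38, 15, 21 and 14 against 24, 11, 11 and 25 cells, and depth was not compared per mouse. Of 2468 genes tested, 206 were higher (8.35%) and 176 lower (7.13%) in the multi-receptor cells, together 15.5%. Tex15 was at 2.62, 0, 0 and 2.45 in these single-receptor cells (log2 change 3.77, adjusted p of 7.74e-06, edgeR), and Crabp1 at 11, 1.62, 0.754 and 5.27 (3.69). Gap43 was at 21.0, 27.9, 29.8 and 33.8 (-1.16), Lhx2 at 10.7, 7.76, 10.6 and 6.65 (0.65), and Ebf1 had a log2 change of 0.58. Omp had a log2 change of -0.35 that did not pass (adjusted p of 0.518, edgeR), and Stoml3 one of 0.61, in the other direction, that did not pass either (adjusted p of 0.451). With the highest receptor at 10 or more UMIs on both sides, 107 genes were higher (1.70%) and 42 lower (0.667%) of 6295, together 2.37%. The depths differed here, with medians of 10889 UMIs in multi-receptor and 7363 in single-receptor cells. Crabp1 remained among them with a log2 change of 3.30 and Omp with 0.87, while Lhx2 had 0.27 and did not pass.

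Cells with exactly 2 receptors stood close to single-receptor neurons. Of 6350 genes tested, 9 were higher (0.142%) and 2 lower (0.0315%), together 0.173% (edgeR), 393 had an unadjusted p under 0.05, and all 11 were also called for multi-receptor neurons, a comparison that shares the single-receptor sums. The genes that rose included S100a5 (log2 2.50), Umodl1 (2.47), 1700012B09Rik (2.10), Pcp4l1 (1.23) and Crabp1 (1.06), and Calb2 (-0.29) and Nqo1 (-1.03) were the 2 that fell. Gap43 was at 36.4, 36.0, 39.1 and 35.3 in these cells (log2 -0.10) and Lhx2 at 6.11, 5.19, 6.36 and 6.60 (0.05), and neither passed. In mouse 4 the blood markers of these cells summed to 132.9 UMIs per 10000, against 0.577 in its single-receptor neurons and 0.0829 to 0.375 in cells with 2 receptors of the other mice, and its immune markers to 1.33 against 0.0481. The part of this in the comparison was not tested. Highest receptors had a median of 28 UMIs with exactly 2 and 25.5 with exactly 3 receptors, and 3 with 4 or with 5 and more.

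Levels also varied with the number of receptors, which is given as a description because the cells of a mouse share a library. Tex15 was at 0.317, 0.573, 2.16, 10.2 and 17.9 UMIs per 10000 in cells with 1, 2, 3, 4, and 5 or more receptors (means of 4 mice). In the same order Crabp1 was at 1.59, 3.54, 9.28, 31.7 and 46.1, and Lhx2 at 5.88, 6.07, 6.79, 8.62 and 12.0. Gap43 went down over this order, from 39.4 and 36.7 to 29.8, 22.8 and 14.2. Omp had no such order, with 5.37, 7.12, 9.45, 5.35 and 6.96. The SD over mice was large for the 35 cells with 4 receptors (10.2 for Tex15 and 6.80 for Gap43).

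The receptors themselves were spread widely. Among 1426 receptor genes, 517 were detected in multi-receptor neurons, 321 of them in 1 cell only and 18 in 5 or more cells, and 141 were also detected in single-receptor neurons. The most frequent was Olfr1372-ps1, a transcribed pseudogene on chromosome 11 from 52154722 to 52168159. It had a UMI in 31 of 184 multi-receptor cells, in all 4 mice, and only 1 UMI in 26 of the 31. Among single-receptor cells 1 of 325 had it, but the rule allows it there only as the sole receptor, so these numbers are no contrast. Over all early immature OSNs of this depth, 35 of 682 had it (5.13%), against 8.91% of mature OSNs and 0.221% of Mv2 cells. Over mature OSNs of all depths, 1 neuron had it as its identity. Olfr267 was detected in 10 multi-receptor cells, Olfr24, Olfr46 and Olfr750 in 9 each, Olfr718-ps1 in 8 and Olfr371 in 7. Olfr371 was found in 9 of 682 early immature OSNs and in 1 of 4983 mature OSNs of this depth. Receptors of class I, encoded by 1 cluster on chromosome 7, made up 48 of the 904 detections, class II 855 and Taar genes 1.

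Whether receptors of the same cell come from the same zone or gene cluster was asked by pairs, as a description, since the pairs are made of the detections by which the cells were chosen. A receptor was called dorsal where the mature OSNs with it as their identity had more Nqo1 than Nfix UMIs in sum. It was called ventral where they had fewer. This needed at least 3 such neurons, and 784 receptors had a zone. Within a multi-receptor cell, the share of pairs of the same zone was 64.9%, 65.1%, 61.6% and 71.2% in mice 1 to 4, averaged over cells of equal weight. For receptors of different multi-receptor cells of the same mouse it was 54.2%, 56.7%, 58.0% and 56.7%, averaged over pairs of cells. The mean difference was 9.29 percentage points, higher in 4 of 4 mice. Counted over pairs, 374 of 561, 149 of 256, 232 of 348 and 71 of 120 within cells shared a zone. These too lay above the values between cells, though by less than the means in mice 2 and 4. Values between cells were not counted over pairs, so the counts have no like measure beside them. For pairs on different chromosomes the means were 63.7% ± 3.92 and 56.0% ± 1.83 (SD, n = 4), again higher in 4 of 4 mice, though by little in mouse 3, with 58.4% against 58.1%.

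Next, the 25 cells with 3 or more receptors at 2 or more UMIs were taken. Their mean share of pairs of the same zone was 74.1%, 83.3%, 40% and 66.7% within cells of mice 1 to 4, averaged over cells. Between cells it was 78.6%, 75.4%, 55% and 77.8%, averaged over pairs of cells. By these means it was higher within cells in mouse 2 only. The mean difference was -5.69 percentage points, from 9, 7, 5 and 2 cells that had pairs with a zone. Counted over pairs, 26 of 31, 19 of 24, 16 of 19 and 2 of 4 within cells shared a zone. Those counts put mice 1 to 3 above their values between cells, which were averaged and not counted over pairs, so no direction can be read. Over all 184 multi-receptor cells, averaged in the same way, pairs on the same chromosome made up 17.8% ± 1.96 within and 11.5% ± 0.832 between cells. Pairs within 1000000 bases made up 10.0% ± 3.50 and 3.46% ± 0.308 (SD, n = 4), both higher in 4 of 4 mice. Counted over pairs within cells, 341 of 2437 lay on the same chromosome and 143 of 2437 within 1000000 bases. Among the 25 cells with receptors at 2 or more UMIs, the mean share on the same chromosome was lower within cells in mice 1 to 3, at 6.33%, 6.19% and 8% against 7.49%, 11.9% and 15%. It was higher in the 3 cells of mouse 4, at 44.4% against 7.41%. Counted over pairs, 4 of 47, 2 of 28, 2 of 27 and 4 of 9 within cells lay on the same chromosome. This puts mouse 1 above its value between cells, which was averaged and not counted over pairs. Reads of neighbouring or near-identical receptor genes can be shared out between them, and the part of this in the pairs was not tested. When receptors within 1000000 bases counted as 1, 22.7% of the early immature OSNs still had 3 or more and 988 genes were called. Class agreed in 89.5% of pairs within cells and 87.9% between cells by the same averages, higher in 3 of 4 mice, and in 2265 of 2434 pairs within cells by count.

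**Figure D5:**
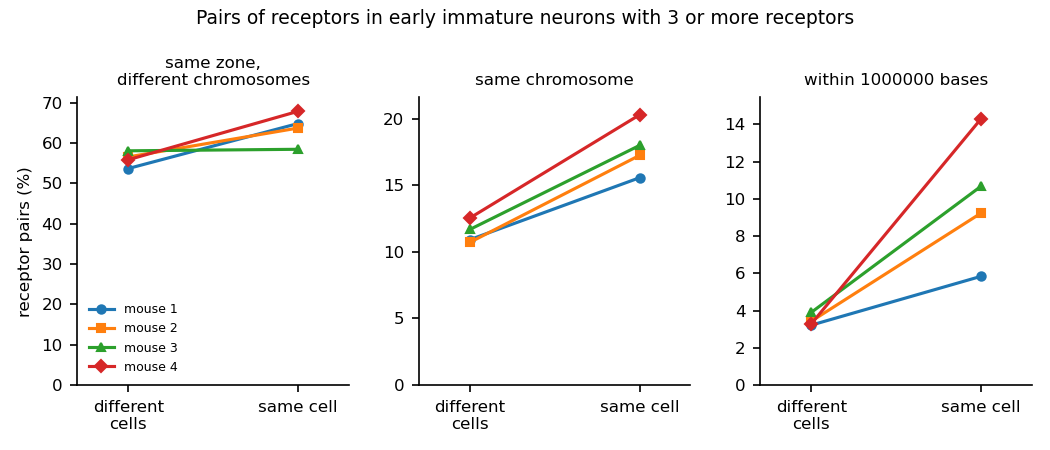
Percent of receptor pairs (y axes, each from 0) in different multi-receptor neurons, as means over pairs of cells, and in the same neuron, as means over cells. Panels give pairs that share a zone although they lie on different chromosomes, that share a chromosome, or that lie within 1000000 bases. Each line is a mouse. Sharing is higher within a cell in all 4 mice on each panel, and mouse 3 moves least for zone (58.1% to 58.4%).

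As a description, the zone of the detected receptors was dorsal in 36.03%, 31.4%, 28.1% and 33.3% of detections in multi-receptor neurons of mice 1 to 4, and in 33.8%, 14.5%, 31.9% and 20.8% in single-receptor neurons. The ranges overlapped, and the share was higher in multi-receptor neurons in mice 1, 2 and 4 and lower in mouse 3.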

How the data were processed

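Each deposited matrix gives whole-number UMI counts of genes in barcodes, which the authors made with Cell Ranger 6.0.1 on GRCm38 with redrawn receptor 3′ ends. The deposited cell table gives, per the file headers, UMI and gene counts, the percent of mitochondrial UMIs, a ratio of UMIs per gene and cell types, which the authors derived in Seurat after sorting for live nucleated cells. Its UMI totals equalled the matrices in 21809 of 21809 barcodes.

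Receptor genes were left out of sums, library sizes and tests. Sums per mouse and side were tested with edgeR 4.0.16 (R 4.3.3; TMM, filterByExpr, mouse as block) and DESeq2 1.42.0, and checked on simulated data. Both sides of a mouse came from 1 animal and library, which pairs them (deviations correlated by 0.0223 to 0.117). Thinning drew 5000 UMIs per cell without replacement. Scrublet (scanpy 1.11.5) called only 2 to 36 barcodes per library, so the 4% highest scores were left out as an alternative. These held 12 of 184 multi-receptor neurons (6.52%), 11 of 133 cells with 2 receptors (8.27%) and 12 of 325 single-receptor neurons (3.69%).

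The members and the 23 gene lists were chosen with earlier results of these data known. Named genes were the 12 largest called changes per direction, the same in 4 mice and at 0.5 or more UMIs per 10000, up to 6 called genes per list by p, and 6 markers. Other genes named from these lists or comparisons were chosen after their values were seen. Positions are from GENCODE vM21 (GRCm38).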

Additional observations from a re-analysis of the deposited data

Results flagged for a closer look

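Over the 4 mice, the gap of 1 mouse to the others was above Dixon's 95% limit for 6 values out of 85 groups examined, and chance flags about 1 in 20 groups. The share of early immature OSNs with 3 or more receptors was 15.1% in mouse 4, against 29.7% to 31.3% in the others. The log2 difference between the sides of S100a5 was 0.57 in mouse 3, the lowest, and that of Pcp4l1 was 0.77 in the same mouse. Rprm stood at -1.66 in mouse 4, Stoml3 at 1.56 in mouse 2 and Gnb1 at -0.11 in mouse 2. These differences were computed on levels with 0.01 added.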

How the results depend on the processing

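Against 920 genes called, DESeq2 called 316, a minimum of 8000 UMIs per cell left 232, cells with 2 or more receptors against 1 gave 568, and receptors counted from 2 UMIs (2 or more against 1) gave 83. Leaving out each mouse gave 481 to 802 calls, the lowest without mouse 1. Without the mouse as a block 754 genes were called, of which 752 were shared, and among named genes only Hmgb1 (-0.27) and Gnb1 (-0.22) lost their call. Of the alternatives chosen after seeing the data, only cells with a highest receptor under 10 UMIs gave 1724, only those with 10 or more gave 131, both sides under 10 UMIs gave 382, both sides at 10 or more gave 149 and members whose second receptor had 2 or more UMIs gave 139. The share of calls that were higher was 58.6%, and it was 79.5% from 2 UMIs, 73.3% at the minimum of 8000 UMIs, 71.8% for cells with a prominent receptor, 71.8% with both sides at 10 or more and 71.2% for members with a second receptor at 2 or more UMIs. It was lower for cells with a weak receptor (50.6%), both sides under 10 UMIs (53.9%), no filter (54.7%) and thinned cells (55.0%). The 67 named genes had 914 values under the alternatives planned, of which 813 kept direction and call, 99 lost the call and 2 reversed. These were Lypd1 (-0.23) and Hes6 (-0.086), both with receptors counted from 2 UMIs. Among the added alternatives, Stoml3 (-1.53), Omp (-1.75), Ric8b (-0.37) and Kirrel2 (-0.75) reversed in cells with a weak receptor, Omp (-0.35) and Pcdh17 (-0.23) with both sides under 10 UMIs, and Cntn4 (0.011) and Gnb1 (0.024) in cells with a prominent receptor.

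The mean share of multi-receptor neurons, 26.8%, was 17.9% after thinning, 3.61% from 2 UMIs and 37.7% at the minimum of 8000 UMIs, and 25.3% to 30.8% without each mouse. The excess of pairs of the same zone, 9.29 percentage points as a mean over cells, was 7.55 to 11.2 without each mouse. From 2 UMIs it was -5.69, where 9, 7, 5 and 2 cells of mice 1 to 4 had pairs with a zone. Its direction there depended on the weighting of the pairs within cells, as given above. The cause of these changes was not tested. Depth differed between the sides, and 628 genes were called on cells matched for it in part, with medians of 8065.5 UMIs in single-receptor and 8674 in multi-receptor neurons. Receptors seen at 1 UMI cannot be told from free RNA or from a doublet partner in a single cell, and genes below the filter were not tested.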
